A study of Homo sapiens with 15 samples.

Results

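IMR32 cells carrying a doxycycline-inducible hairpin against CDK2 were compared at 48 h of knockdown with the same cells at 0 h, using all 3 arrays of each time, 6 of the 15 arrays of a time course. IMR32 is an established human neuroblastoma line with amplified MYCN. CDK2 is the kinase that works with cyclins E and A at the start of and during S phase. The design asks what a MYCN-amplified line transcribes after CDK2 is lost.

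All arrays come from 1 clone, IMR32-pcDNA6-CDK2sh, which carries the tet repressor of pcDNA6/TR under a CMV promoter and a pTER vector with a hairpin against nucleotides 546 to 566 of the CDK2 mRNA. Clones had been selected with Blasticidin-S and Zeocine and were grown in DMEM with 10% fetal calf serum. Doxycycline at 100 ng/ml switched the hairpin on, so the arrays at 0 h are the uninduced clone and those at 48 h the induced one. The labels give times without a unit, and hours are taken from knowledge of the study. Uninduced cells at 48 h, or cells with a control hairpin, were not used here. Doxycycline, time in culture and loss of CDK2 therefore cannot be told apart. Whether replicate arrays stem from separate cultures is not in the labels, so a p-value here measures the spread among these arrays, which may be technical. Bulk RNA was measured, in which fewer cells of a type and less RNA per cell cannot be told apart. Arrays at 8, 24 and 72 h are compared only as neighbours in time. They also enter the shared fit, and so its standard errors and p-values, the filter on low signals and the choice of probe sets.

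As background, CDK2 and the other cyclin-dependent kinases phosphorylate the pocket proteins and so release E2F factors, which switch on the genes of DNA replication. Later in the cycle, complexes built on MuvB with MYBL2 and FOXM1 switch on the genes of mitosis. When p53 is active it induces CDKN1A, which inhibits these kinases and returns both gene groups to repression by DREAM. Neuroblastoma arises from sympathetic neuron precursors, and IMR32 belongs to its noradrenergic form.

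Values are MAS5 signals in arbitrary array units, and changes are differences of mean log2(signal + 16), 48 h minus 0 h, with their standard error from limma and a Benjamini-Hochberg adjusted p over 11774 genes. A gene is called at an adjusted p under 0.05. Adding 16 understates the change of dim genes. Of the genes tested, 5175 (44.0%) were called, 3093 higher (26.3%) and 2082 lower (17.7%), with a median change of 0.08 over all genes. When each array was centred on its median, the split became 2069 higher and 2556 lower. An absolute change of 1 or more left 575 genes (4.88%), 279 higher (2.37%) and 296 lower (2.51%). With every probe set tested singly, 9460 (34.6%) were called, 5689 higher (20.8%) and 3771 lower (13.8%). With calls this common, each list below is read against these percentages. Of the genes called higher, 174 had a mean at 0 h below the filter (a signal of about 16.6), 39 of them past a change of 1. These passed through their later arrays, and counts that hold them are descriptions. Among the genes named below they are ABCA1, ARC, HDAC9, LUM and 4 histone genes. Of the counts of 5 or more called in 1 direction in a list, 11 of 76 moved by over 1.5 times when 1 array at 0 or 48 h was left out, and so did 20 of the 59 counts of 1 to 4. The former are given below with the array.

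The 6 arrays had median signals of 15.7 to 17 at 0 h and 17.6 to 19.3 at 48 h, and GAPDH's 3′ probe set read 0.992 to 1.03 times its 5′ probe set. Arrays correlated across genes at 0.990 to 0.9931 within 0 h, at 0.9878 to 0.9914 within 48 h and at 0.9482 to 0.9588 between the times. At 48 h, replicate 3 stood apart in the cell cycle genes and in some lists that rose. It was the lowest array for 28 of 31 kinetochore genes, 12 of 12 mitotic kinesins and 26 of 34 replication fork genes, and the highest for 18 of 22 histone genes. It was also the highest for 8 of 12 p53 repair and metabolism targets and 19 of 33 synaptic genes, but for 11 of 36 proteasome subunits. Over all 11774 genes it was lowest for 4312 and highest for 3893. At 0 h, replicate 3 was also lowest for 22 of the 31 kinetochore genes and 9 of the 12 kinesins. Why replicate 3 lies apart was not tested. Counts without replicate 3 at 48 h are given for the licensing, fork, kinetochore, spindle assembly, kinesin, histone, p53 repair and synaptic lists. They are not given for every list it may touch.

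**Figure D1:**
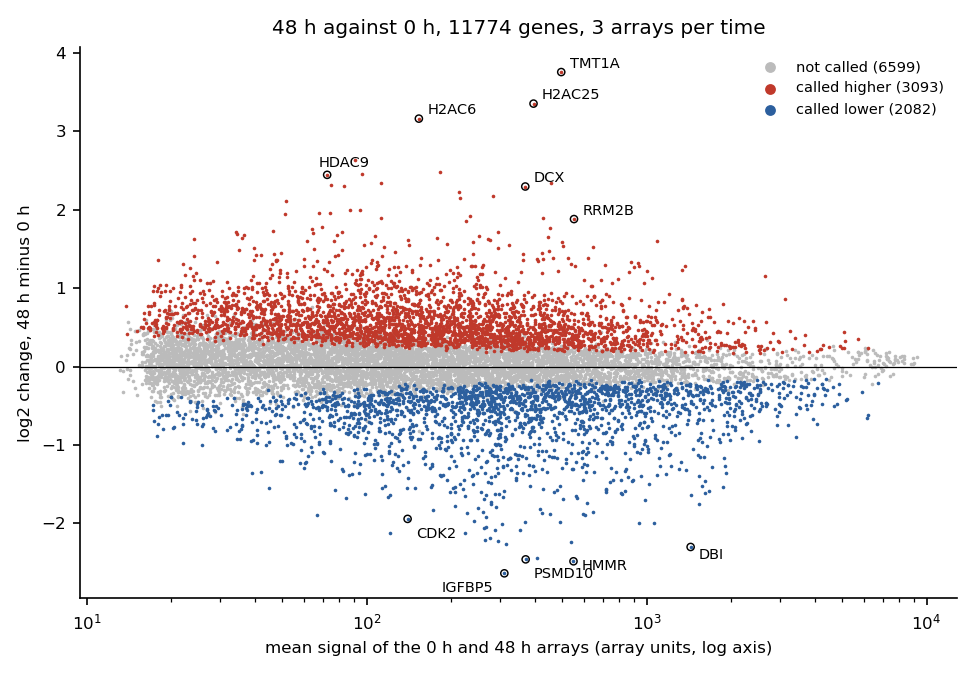
Change at 48 h against 0 h (log2, vertical) plotted against the mean signal of the 6 arrays (array units, log axis) for 11774 genes; each point is a gene, coloured red where called higher, blue where called lower and grey where not called. TMT1A, at 3.76, and the histone genes H2AC25 and H2AC6 have the largest rises, and IGFBP5, HMMR and PSMD10 the largest falls.

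CDK2 itself had signals of 245.5, 236.0 and 213.7 at 0 h and 52.7, 53 and 40.1 at 48 h. All arrays at 48 h lie below all arrays at 0 h, and the mean at 48 h was 21% of that at 0 h (change -1.94, SE 0.14, limma adjusted p 8.31e-09). It was still falling between neighbouring times, by 0.58 from 24 to 48 h (adjusted p 0.0062) and by 0.50 from 48 to 72 h (adjusted p 0.03). The other cyclin-dependent kinases split. CDK1, the kinase of mitotic entry, had signals of 2548, 2562 and 2006 at 0 h and 859.0, 808.5 and 467.1 at 48 h, without overlap, and fell by 1.75. CDK4, the partner of the D cyclins, was not called (-0.08, adjusted p 0.343), while CDK6, which has the same partners, rose (0.48). CDK7, which activates the other kinases, was not called (0.17), and the small kinase-binding subunits CKS1B and CKS2 fell by 0.73 and 0.38.

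Of 11 cyclins tested, 8 fell and 2 rose. The cyclin E gene CCNE2, a partner of CDK2, went from 504.0, 501.7 and 416.4 at 0 h to 153.2, 156.4 and 107.7 at 48 h (-1.67). CCNA2, the S phase cyclin that binds CDK2 and CDK1, fell by 1.56, and the mitotic cyclin CCNB1 by 1.13. CCNB2, CCNE1 and CCNF fell by 0.82, 0.79 and 0.44. Of the D cyclins CCND3 fell by 0.64 and CCND1 by 0.27. CCNH, the partner of CDK7, was not called (0.03). Those that rose were CCNG2 (1.37), which encodes a cyclin found in resting cells, and CCNG1 (0.44), a p53 target. Among the 6 CDK inhibitors tested only CDKN1A rose (1.61), with signals of 505.5 to 564.4 at 0 h and 1518 to 1727 at 48 h. CDKN1B, the inhibitor of CDK2 known as p27, was not called (0.02), nor were CDKN1C (-0.23) and CDKN2A (-0.18). CDKN2D, which inhibits CDK4 and CDK6, fell by 0.74, and CDKN3, a phosphatase that acts on CDK2, by 1.17.

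E2F factors divided by member. The activators E2F1, E2F2 and E2F3 fell by 1.45, 1.38 and 0.33, and the repressors E2F8 and E2F7, themselves E2F targets, by 2.12 and 0.71. E2F4, which carries repression in resting cells, was not called (0.00), and E2F5, of the same kind, rose (0.78). The repressor E2F6 was not called (-0.11). Of the partners that E2Fs bind DNA with, TFDP1 fell by 0.66 and TFDP2 rose by 0.78. E2F1 had signals of 337.7, 324.0 and 337.6 at 0 h, 338.8 to 400.3 at 24 h and 124.3, 127.8 and 86.9 at 48 h. Its level was thus not called lower at 24 h (0.12, adjusted p 0.569), and the step from 24 to 48 h was -1.57. The pocket protein genes moved in opposite directions: RBL1, the p107 gene, fell by 0.77, RBL2, the p130 gene of resting cells, rose by 0.59, and RB1 was not called (-0.28). MYBL2, the MuvB partner in S phase, had signals of 555.8, 555.7 and 479.3 at 0 h and 115.0, 116.6 and 67.4 at 48 h, without overlap (-2.27). FOXM1, which joins MuvB in G2, fell by 1.86.

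Steps to the neighbouring times were tested as comparisons of their own. From 24 to 48 h, 2702 genes (22.9%) were called, 1462 higher (12.4%) and 1240 lower (10.5%). From 48 to 72 h, 1258 (10.7%) were called, 535 higher (4.54%) and 723 lower (6.14%). The count for 48 to 72 h fell to 746 without replicate 1 at 48 h, to 656 without replicate 2 and to 767 without replicate 3 at 72 h.

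Replication genes fell almost as a block. Of 18 origin licensing genes, whose products load the MCM helicase onto origins, 16 fell and 1 rose, with a median of -1.02. MCM10, which activates the loaded helicase, had signals of 662.8, 697.6 and 732.6 at 0 h and 116.3, 130.4 and 99.5 at 48 h. Every array at 48 h is below every array at 0 h (-2.45, SE 0.11, adjusted p 5.03e-11). CDC6, the helicase loader, went from 571.7, 578.8 and 591.6 to 124.6, 135.8 and 115.7 (-2.08). ORC1, the origin recognition subunit made anew in each cycle, went from 365.4, 366.8 and 368.0 to 105.3, 98.4 and 66.7 (-1.87). Among the remaining ORC subunits ORC6, ORC3 and ORC5 fell by 0.95, 0.69 and 0.28, ORC4 rose (0.41) and ORC2 was not called (0.08). Without replicate 3 at 48 h the list again gave 16 lower and 1 higher, with a median of -0.934.

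At the replication fork, 32 of 34 genes fell and 1 rose (median -0.98, or -0.884 with 31 lower without replicate 3 at 48 h). The GINS subunits GINS3 and GINS4, parts of the active helicase, fell by 2.08 and 1.89. RPA2, a subunit of the single-strand binding protein, went from 1055, 1010 and 989.5 to 266.6, 304.6 and 240.0 (-1.86), and FEN1, the flap nuclease of lagging strands, fell by 1.62. POLD4, a small subunit of polymerase delta, was the exception, with signals of 13.4, 13.5 and 38.0 at 0 h and 41.2, 49.6 and 48.7 at 48 h (0.79, adjusted p 0.0117). That call was lost without replicate 1 or replicate 2 at 0 h.

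Both E2F1 and ORC1, which carry the replication programme, have an E2F site close to the start in RefSeq's GRCh38.p14 sequence, and they are printed to show where it lies. The lines give the 150 bases before the start in the gene's own direction, 5′ to 3′, with capitals on E2F sites (TTCCCGC and, as the other form counted in these promoters, TTGGCGC), and likewise on CCAAT boxes and on the CHR, a site read by MuvB complexes with the letters TTTGAA, each on either strand. ORC1 lies at chr1:52404424-52404573 on the minus strand and E2F1 at chr20:33686386-33686535 on the minus strand. In ORC1 the E2F site, which begins 22 bases before the start, overlaps a CCAAT box, and in E2F1 it begins 19 bases before the start.
ORC1: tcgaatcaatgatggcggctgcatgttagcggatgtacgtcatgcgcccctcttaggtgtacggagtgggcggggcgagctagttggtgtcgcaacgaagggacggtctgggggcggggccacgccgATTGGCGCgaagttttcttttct
E2F1: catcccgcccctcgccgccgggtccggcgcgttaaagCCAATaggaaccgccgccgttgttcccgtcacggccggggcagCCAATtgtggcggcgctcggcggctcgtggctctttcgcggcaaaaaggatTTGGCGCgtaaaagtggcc

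Nucleotide synthesis showed an exchange of ribonucleotide reductase subunits. Of 23 genes, 11 fell and 3 rose. RRM2, the S phase subunit, had signals of 1819, 1801 and 1473 at 0 h and 487.3, 501.8 and 284.8 at 48 h (-2.0). RRM2B, the p53-induced subunit that supplies resting cells, had signals of 233.6, 222.8 and 215.2 at 0 h and 710.9, 893.8 and 1028 at 48 h (1.88). At 48 h every array has more RRM2B signal than at 0 h and less RRM2 signal. TK1, the S phase thymidine kinase, fell by 1.98, and TYMS, the thymidylate synthase, by 0.96. IMPDH2 and CMPK1, which act in guanine and pyrimidine nucleotide synthesis, rose by 0.46 and 0.28. NME1, ADSL and CTPS1 were the brightest members not called (-0.13 to -0.08).

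Mitotic genes fell as widely and were still falling afterwards. Of 31 kinetochore genes tested 30 fell (median -1.15), of 19 genes of spindle assembly and cytokinesis 18 fell (median -1.27), of 13 spindle checkpoint genes 10 fell (median -0.97), and of 12 mitotic kinesins 12 fell (median -1.29); none of these rose. The kinesins also fell in all 12 members from 24 to 48 h (median -1.33) and in all 12 from 48 to 72 h (median -1.19). Without replicate 3 at 48 h the counts were 30, 18 and 12 for kinetochore, spindle and kinesin genes, and the medians were -1.07, -1.08 and -1.14.

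KIF11, the kinesin that pushes the spindle poles apart, had signals of 637.5, 668.7 and 491.5 at 0 h and 140.5, 159.5 and 118.2 at 48 h (-1.98). KIF14, needed for cytokinesis, fell by 1.97. HMMR, a microtubule protein of the spindle, went from 1052, 968.7 and 796.2 to 165.3, 198.7 and 109.1 (-2.48) and was among the 15 largest falls. For these 3 genes the times do not overlap. The kinetochore genes CENPW and SPC25, for an inner and an outer component, fell by 1.88 and 1.80. Of the spindle checkpoint, BUB1 fell by 1.33, and MAD2L2 and MAD1L1 were not called (-0.06 and -0.11).

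PLK1, the Polo kinase of mitotic entry, had signals of 461.7, 489.6 and 544.1 at 0 h, 402.5 to 603.3 at 24 h and 216.0, 234.4 and 120.6 at 48 h. It was not called at 24 h (0.01, adjusted p 0.977) and fell by 1.36 at 48 h. CDC20, the activator of the anaphase-promoting complex, had signals of 1042, 1098 and 1041 at 0 h and 544.9, 439.1 and 318.0 at 48 h (-1.29), after -0.06 at 24 h (adjusted p 0.845). A further fall of 1.59 took it to 119.1 to 137.2 at 72 h. Of 12 CDC25 phosphatases and entry kinases, 11 fell (median -1.04). CDC25A, the phosphatase that activates CDK2, fell by 2.22, and CDC25B was the member not called (-0.10). In the anaphase-promoting complex and SCF list, 8 of 22 fell and 1 rose. The falls were led by CDC20 and the inhibitor gene FBXO5 (-1.21), and FBXW7, which marks cyclin E for destruction, rose by 1.17.

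PLK1 and KIF11 hold a CHR next to the start, with a CCAAT box upstream of it, and are printed for that spacing. They lie at chr16:23678739-23678888 and chr10:92592980-92593129, both on the plus strand of GRCh38.p14 (RefSeq), again as the 150 bases before the start with the same motifs in capitals. The CHR begins 29 bases before the start in PLK1 and 28 in KIF11, and the CCAAT box 73 and 53.
PLK1: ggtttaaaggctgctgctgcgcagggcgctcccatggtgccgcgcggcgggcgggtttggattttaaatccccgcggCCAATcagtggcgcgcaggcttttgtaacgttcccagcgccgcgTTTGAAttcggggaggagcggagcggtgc
KIF11: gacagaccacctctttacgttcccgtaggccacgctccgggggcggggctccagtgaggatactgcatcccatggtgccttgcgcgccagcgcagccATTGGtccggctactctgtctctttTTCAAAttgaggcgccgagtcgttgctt

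The motifs were counted over windows of 300 bases, from 250 before to 50 after the start, on both strands. The CHR was present in 75% of the 12 promoters of mitotic kinesins, 66.7% of 15 spindle genes and 46.2% of 26 kinetochore genes, against 0% of 29 replication fork genes and 6.25% of licensing genes. E2F sites were held by 58.6% of replication fork promoters and 8 of 16 licensing promoters, and by 34.6% of kinetochore, 26.7% of spindle and 25% of kinesin promoters. Among 9657 tested genes with a promoter, 9.51% held a CHR, 15% an E2F site and 37.1% a CCAAT box. Over all 27305 promoters the shares were 15.4%, 9.33% and 35.7%. Of the 251 promoters of genes that fell by 1 or more, 26.7% held a CHR and 29.9% an E2F site, and of the 225 that rose by 1 or more, 11.1% and 8.0%. A match is a stretch of letters and does not show binding.

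**Figure D2:**
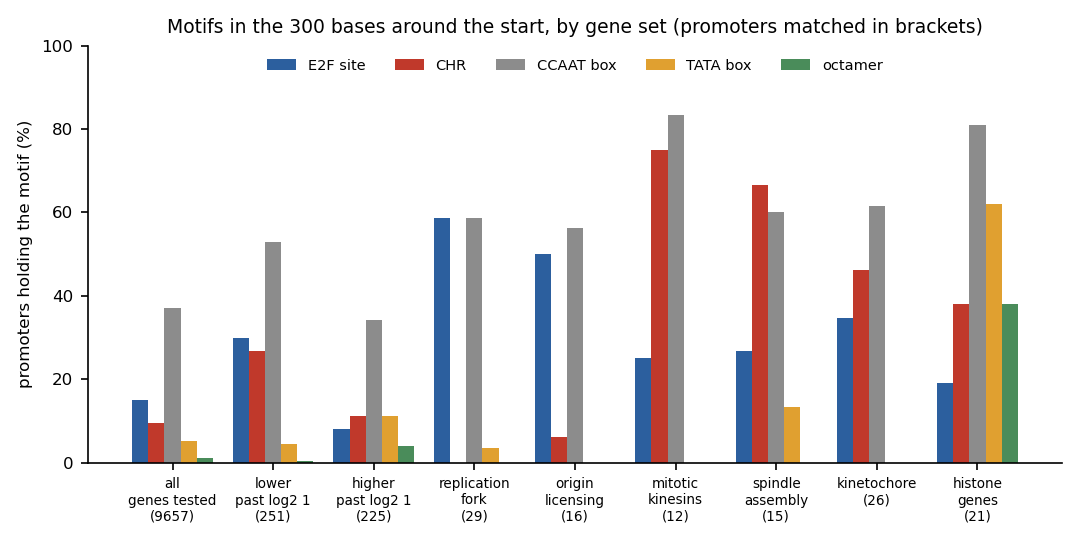
Share of promoters (%, vertical) holding each of 5 short motifs in the 300 bases around the start, by gene set, with the number of promoters matched in brackets. E2F sites are at 58.6% in the replication fork set and the CHR at 75% in the mitotic kinesin set, while the TATA box and the octamer are at 61.9% and 38.1% in the histone set.

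Condensins, cohesins and topoisomerases, which shape mitotic chromosomes, fell in 18 of 23 members and rose in 2. NCAPG, a condensin subunit, fell by 1.68, and TOP2A, the topoisomerase II of dividing cells, by 0.96. Its relative TOP2B, the form of resting and neuronal cells, rose by 0.38, from 1409 to 1503 at 0 h to 1846 to 1920 at 48 h. SMC3, a cohesin subunit needed outside mitosis, was not called (-0.05).

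Replication-dependent histone genes went against the rest of the S phase programme. Of 63 listed genes 39 are on the array and 22 passed the filter, of which 12 rose, 0 fell and 10 were not called (median 0.56). The 17 below the filter had mean signals of 2.2 to 12 at 48 h. H2AC8, H2AC15, H3C6 and H4C8 had means at 0 h below the filter and passed it through their later arrays, so the count is a description. H2AC6 had signals of 13.3, 22.5 and 15 at 0 h and 228.1, 217.3 and 426.4 at 48 h (3.16, SE 0.20, adjusted p 1.39e-09). H2AC25 went from 61.1, 41.8 and 68.2 to 709.8, 593.3 and 894.5 (3.36), and H2BC12 from 127.8, 128.0 and 167.8 to 366.5, 336.1 and 649.6 (1.52). In all 3 genes the times are fully apart, and replicate 3 is the highest array at 48 h.

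By family, 5 of 6 tested H2A genes and 4 of 5 H2B genes rose, against 1 of 2 for H1, 1 of 4 for H3 and 1 of 5 for H4. These shares cover only genes past the filter, 6 of 8 H2A and 5 of 12 H2B genes on the array. The H3 and H4 genes that rose, H3C6 and H4C8, and the H2A genes H2AC8 and H2AC15 passed it through their later arrays. The shares are therefore a description. H2BC5 rose by 2.18, H2AC8 by 1.35, H2BC21 by 1.19, H3C6 by 1.15 and H2AC17 by 0.96. H4C11 and H2BC9 were the brightest members not called (-0.13 and 0.32). The difference between families was not tested. Of the 22, H2AC6 (0.87) and H2AC25 (1.06) had already risen at 24 h against 0 h. From 24 to 48 h, 10 rose and 1, the linker histone H1-3, fell (-0.97, adjusted p 0.0399). From 48 to 72 h 10 of the 22 rose, not necessarily the same ones. Without replicate 3 at 48 h the count dropped from 12 to 8 and the median to 0.398, and with centring or quantile normalisation it was 9. Histone genes share near-identical sequences, so a probe set can read several copies.

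As background, mRNAs of these genes normally end in a stem-loop bound by SLBP and lack a poly(A) tail, and the labelling used here primes from poly(A). Whether the signal reflects more transcript or more polyadenylated transcript was not tested. SLBP itself had signals of 1566, 1499 and 1487 at 0 h and 501.2, 477.0 and 395.3 at 48 h, without overlap (-1.70, adjusted p 2.22e-10). Of 17 genes of histone mRNA processing and chaperones 11 fell and 1 rose, among them the chaperones ASF1B (-1.38) and CHAF1B (-1.55), which hand new histones to replicated DNA. ATRX, which deposits a variant of H3 outside replication, rose by 0.68. Of 9 histone variants 6 fell, such as H2AX (-1.17) and the centromeric CENPA (-1.11). The 1 that rose was H2AC25, which stands in both histone lists.

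H2AC6 and H2BC12 are printed because they rose while SLBP fell. They lie at chr6:26124022-26124171 on the plus strand and chr6:27146859-27147008 on the minus strand of GRCh38.p14 (RefSeq), as the 150 bases before the start. Capitals mark TATA boxes (TATAAA), octamers (ATTTGCAT) and CCAAT boxes, on either strand. The TATA box begins 31 bases before the start in H2AC6 and 27 in H2BC12, and the octamer 130 and 46. Of 21 matched histone promoters 61.9% held a TATA box, 38.1% an octamer and 81.0% a CCAAT box, against 5.30%, 1.20% and 37.1% of tested genes. A CHR was held by 38.1% of them and an E2F site by 19%, against 9.51% and 15% of tested genes. The shares over all promoters were 12% and 1.80% for TATA box and octamer.
H2AC6: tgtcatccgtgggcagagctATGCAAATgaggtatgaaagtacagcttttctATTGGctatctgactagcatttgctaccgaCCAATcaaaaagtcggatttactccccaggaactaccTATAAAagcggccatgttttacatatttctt
H2BC12: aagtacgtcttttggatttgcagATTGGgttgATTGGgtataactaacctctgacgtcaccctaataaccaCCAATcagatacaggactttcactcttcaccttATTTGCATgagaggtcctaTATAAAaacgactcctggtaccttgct

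**Figure D3:**
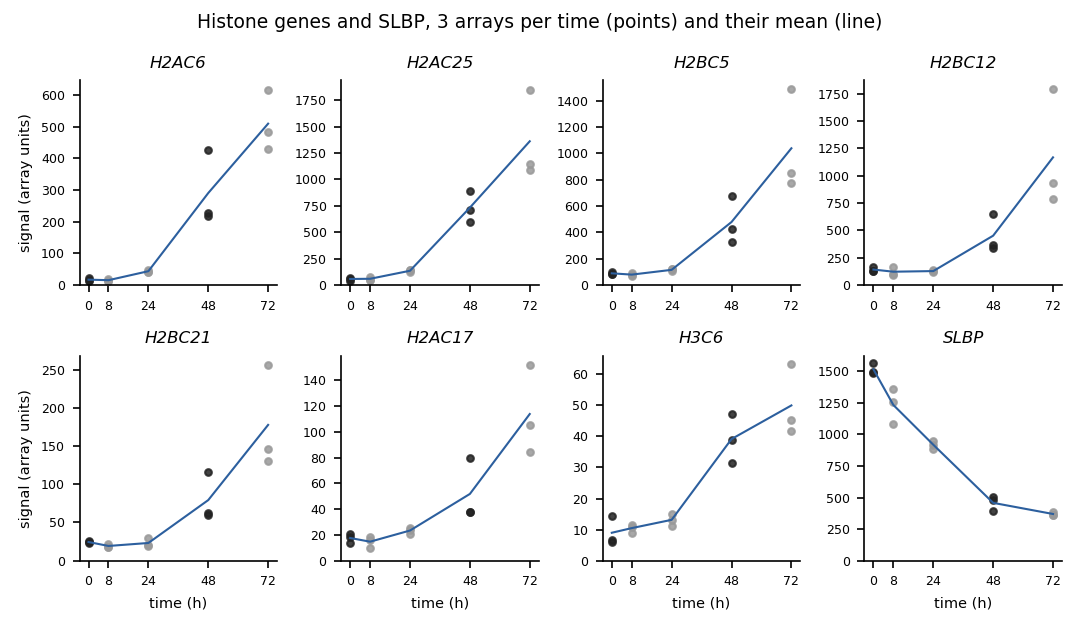
Signal (array units, vertical) of 7 histone genes and SLBP at 0, 8, 24, 48 and 72 h (horizontal); points are arrays, dark at 0 and 48 h, and lines join the means of 3 arrays. H2AC6 and H2AC25 have means of 43.6 and 134.9 at 24 h, after 16.9 and 57.0 at 0 h, and H2AC6 is at 217.3 to 426.4 at 48 h, while SLBP is at 395.3 to 501.2 at 48 h after 1487 to 1566 at 0 h.

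Among chromatin regulators, HDAC9, a class II deacetylase, had signals of 11.3, 6.3 and 13.5 at 0 h and 95.1, 102.3 and 205.5 at 48 h (2.45), with no overlap. Of 15 deacetylases 5 rose, HDAC9 included, and 0 fell, against 26.3% higher and 17.7% lower over all genes. With centring 3 rose and 2 fell, and with the replicate number as a block 7 rose and 2 fell. UHRF1, which guides maintenance methylation to new DNA, went from 2403 to 2462 at 0 h to 621.5 to 891.1 at 48 h (-1.62). EZH2, the Polycomb methyltransferase of dividing cells, fell by 0.55, while its relative EZH1 rose by 0.81. MBD2 fell by 0.58 on the probe set used and rose by 1.37 on another, so its direction depends on the probe set. LMNB1, the B-type lamin, fell by 1.09, and 8 of 15 lamina and HMG genes fell. Nuclear pore and transport genes fell in 27 of 43 and rose in 4, led by NUP107 (-1.44). Splicing factors fell in 25 of 51 and rose in 5. Those that rose most were the neuronal splicing regulators CELF3 (1.55), NOVA2 (1.32) and RBFOX1 (0.90).

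DNA repair genes were tested in 4 lists, and the differences between them were not tested. Of 16 genes of homologous recombination, which works on replicated DNA, 13 fell and 2 rose (median -0.93). EXO1, the nuclease of end resection, went from 476.6, 464.0 and 432.6 to 133.3, 134.2 and 98.6 (-1.79), and the helicase BLM fell by 1.60. RAD50 and NBN, of the complex that senses breaks, rose (0.68 and 0.39). The Fanconi anaemia list had 8 of 11 lower and 1 higher, and the checkpoint list 8 of 13 lower and 3 higher. Within the latter, CHEK1 fell by 1.03 and CLSPN, its adaptor, by 1.57, while the apical kinases ATM and ATR rose by 0.56 and 0.30. The other probe set of ATR past the filter was not called (0.14). Of 20 mismatch and excision repair genes 8 rose and 3 fell, and 4 rose with centring, where 2069 of 11774 genes were called higher. DDB2 and XPC, which find ultraviolet damage and are p53 targets, rose by 0.99 and 0.68. UNG, which removes uracil from new DNA, went from 945.2, 962.8 and 975.2 to 251.6, 285.6 and 209.4 (-1.89).

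**Figure D4:**
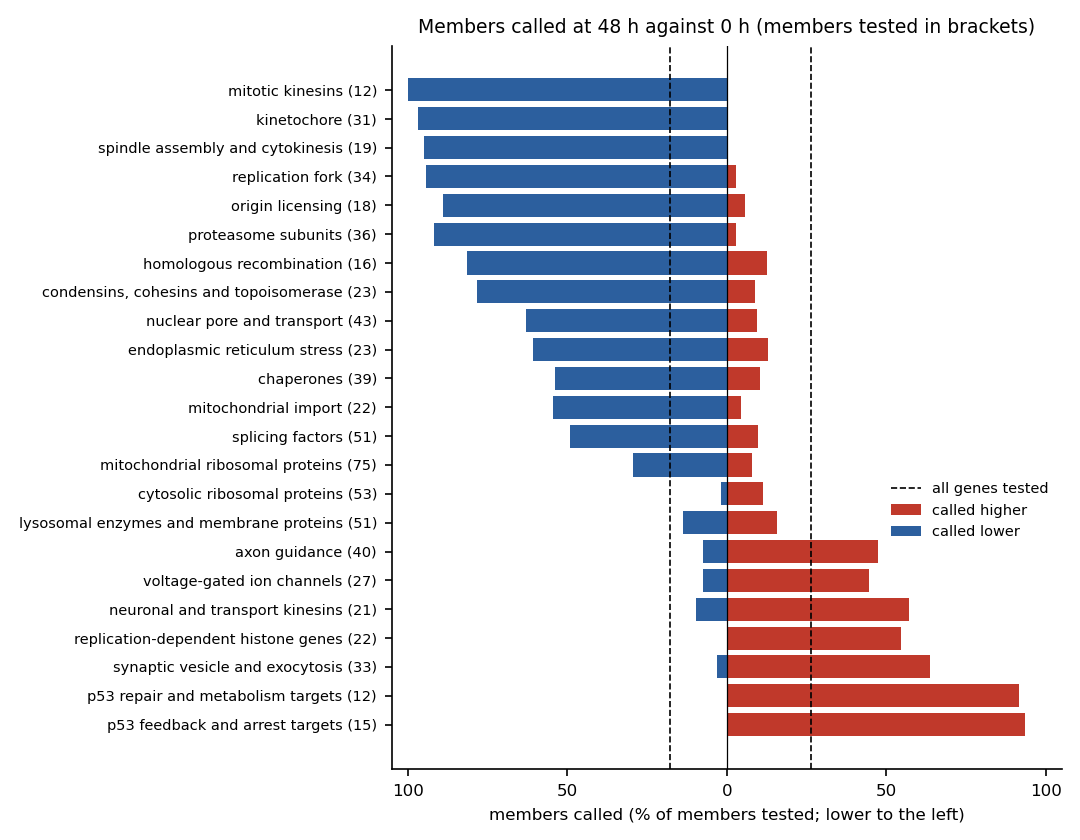
Share of the tested members of 23 gene lists called lower (blue, to the left) and higher (red, to the right) at 48 h against 0 h, in percent, with the number tested in brackets; dashed lines mark the shares over all 11774 genes, 17.7% lower and 26.3% higher. Mitotic, replication and proteasome lists lie almost wholly to the left, and p53 and synaptic lists mainly to the right.

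Genes induced by p53 rose in nearly all tested members: 14 of 15 in the feedback and arrest list (median 0.86) and 11 of 12 in the repair and metabolism list (median 1.27). Without replicate 3 at 48 h the repair and metabolism list again had 11 higher, with a median of 1.23. PURPL, a long noncoding RNA induced by p53, had signals of 23.9, 14.2 and 18.2 at 0 h and 177.3, 184.6 and 160.3 at 48 h (2.46). The sestrin SESN1 went from 92.8, 88.5 and 84.4 to 361.7, 360.8 and 420.5 (1.92), and CYFIP2 from 232.5 to 272.3 up to 728.4 to 793.9 (1.54). None of these 3 overlaps. PLK2, a kinase of stressed and neuronal cells, rose by 1.43. SFN, an arrest gene mostly of epithelia, was not called (-0.23).

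In the BCL2 and death receptor list 6 of 26 rose and 7 fell, shares near those over all genes. The falls were 4 without replicate 3 at 0 h or replicate 3 at 48 h and 3 without replicate 2 at 48 h. The death receptors TNFRSF10B and FAS rose by 1.22 and 1.13, and TNFRSF10B had signals of 575.4 to 629.9 at 0 h and 1381 to 1428 at 48 h. BCL2, which protects cells, rose by 1.08, and BAX, which kills them, by 0.79. PMAIP1, a p53 target of the same family, fell by 0.34, but its other probe set past the filter was not called (-0.28). MCL1 was not called (-0.06), though 1 of its 5 other probe sets was called lower (-0.30).

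Brakes on growth signalling rose beside them. Of 22 genes of the list with TXNIP, sestrins and mTOR inhibitors 12 rose and 2 fell. DDIT4, an inhibitor of mTORC1, had signals of 160.1, 160.5 and 103.1 at 0 h and 798.5, 792.3 and 722.5 at 48 h (2.35). TXNIP, which limits glucose uptake, went from 85.2, 74.2 and 49.4 to 397.9, 424.1 and 268.1 (2.15), also without overlap. RHEB, the activator of mTORC1, fell by 0.44. Of 13 FOXO and KLF factors 7 rose, led by KLF9 (1.24), and 2 fell.

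Some of the largest falls had been reached by 24 h and moved little afterwards. PSMD10, a chaperone of proteasome assembly also called gankyrin, had signals of 682.5, 619.6 and 608.7 at 0 h and 120.4, 100.2 and 89.0 at 48 h, well apart (-2.46, SE 0.13, adjusted p 2.22e-10). At 24 h its change was already -2.26, and the step from 24 to 48 h was not called (-0.20, adjusted p 0.295). TOMM20, the import receptor of the mitochondrial outer membrane, went from 2763, 2700 and 2087 to 789.5, 871.9 and 808.8 (-1.58), with -1.63 at 24 h and a step of 0.04 (adjusted p 0.822). IDH3A, a subunit of a citric acid cycle enzyme, fell by 1.5, with -1.59 at 24 h and a step of 0.09 (adjusted p 0.517). RAB7A, the GTPase of late endosomes, fell by 1.19, but 3 of its 4 other probe sets were not called. Those 3 were dim, with means of 17.1 to 26.5 at 0 h, and the other went from 382.1 to 136.9 (-1.38). DBI, which binds acyl-CoA, fell to 19.8% of its mean at 0 h, from 2335, 2359 and 2505 to 432.6, 485.2 and 506.0 (-2.30). Unlike PSMD10, TOMM20 and IDH3A, it was also lower at 48 h than at 24 h (-0.90).

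**Figure D5:**
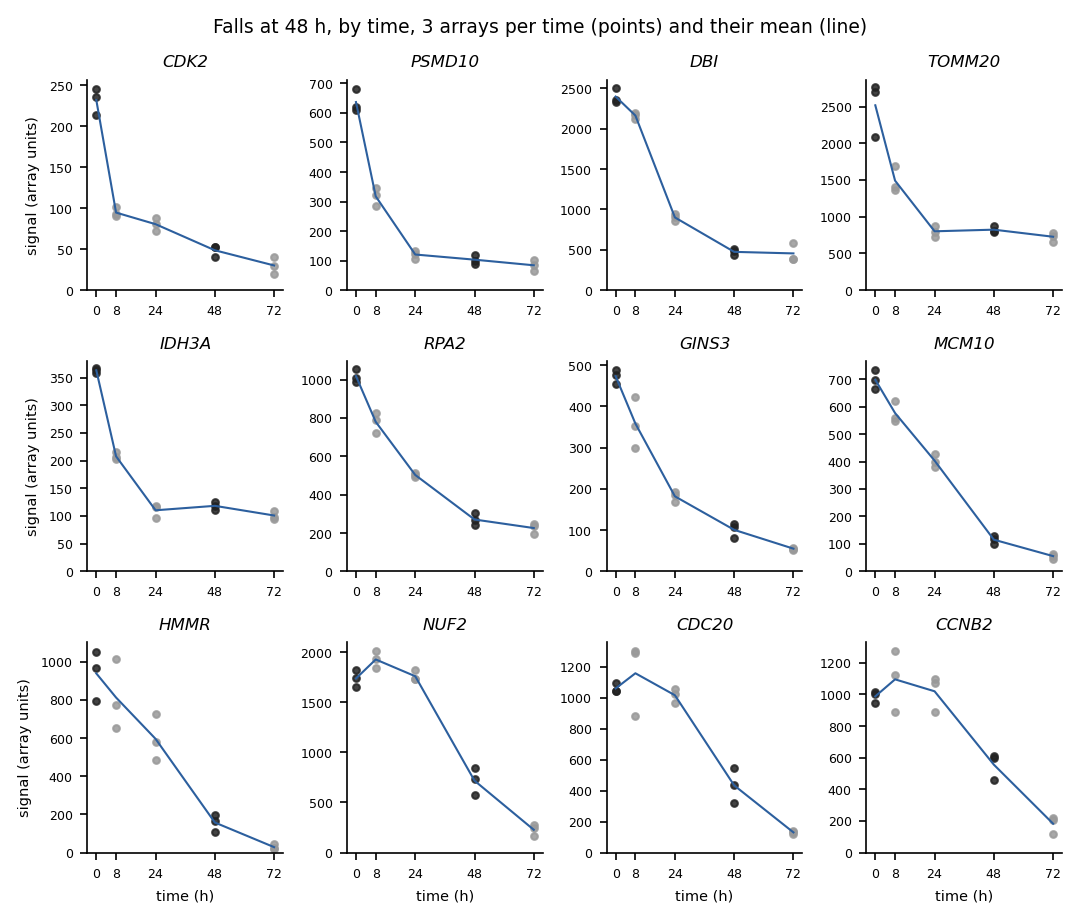
Signal (array units, vertical) of 12 genes that fell at 48 h, at 0, 8, 24, 48 and 72 h (horizontal); points are arrays, dark at 0 and 48 h, and lines join the means of 3 arrays. PSMD10, TOMM20 and IDH3A are near their 48 h level by 24 h, whereas CDC20 and NUF2 are near their 0 h level at 24 h.

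Proteasome subunits fell as a list: 33 of 36 tested were lower and 1 higher, with a median of -0.52. From 24 to 48 h 12 fell and 1 rose, and from 48 to 72 h 3 fell. PSMD14, the deubiquitinase of the lid, had signals of 2198, 2206 and 2306 at 0 h and 835.7, 810.4 and 873.8 at 48 h (-1.40). PSMC2, an ATPase of the base, fell by 1.32. PSMF1, an inhibitor of the proteasome, was the member that rose (0.56). None of its other probe sets past the filter was called (0.11, 0.23 and 0.33). PSMB5 and PSMD4 were not called (-0.22 and -0.14). Falls in this list were mostly smaller than those of the cell cycle genes, and only PSMD10, PSMD14, PSMC2, PSMD11 and PSMD1 reached 1.

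Other protein-handling lists leaned the same way. Chaperones fell in 21 of 39 and rose in 4. HSPH1, a cytosolic chaperone, fell by 0.91, and HSP90B1, of the endoplasmic reticulum, by 0.98, whereas DNAJC12, a co-chaperone of aromatic amino acid hydroxylases, rose by 1.29. The brightest, HSPD1 and HSP90AB1, were not called (-0.12 and -0.05), but 1 of 3 other probe sets of HSPD1 was called lower (-0.23). Endoplasmic reticulum stress genes fell in 14 of 23 and rose in 3, with 9 lower without replicate 1 at 0 h. In the list of the ATF4 response and tRNA synthetases 15 of 35 fell and 1 rose. SLC7A5, a leucine transporter, had signals of 447.5, 468.4 and 505.1 at 0 h and 137.8, 209.6 and 200.3 at 48 h (-1.32). Mitochondrial import genes fell in 12 of 22 and rose in 1, and TOMM5 fell by 1.46.

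Neuronal genes rose, list by list, to differing extents. Synaptic vesicle and exocytosis genes rose in 21 of 33 tested and fell in 1 (median 0.36), or 14 and 3 with centring and 16 and 1 without replicate 3 at 48 h. Those with the greatest change were ERC2 (1.23), a scaffold of the active zone, SYT4 (1.07), a synaptotagmin, and UNC13B (0.99), which primes vesicles. STX1A, a membrane SNARE, fell by 0.53, and SNAP25, its partner, was not called (0.18). Kinesins of neurons and transport, unlike those of mitosis, rose in 12 of 21 and fell in 2, or 9 and 4 with centring and 8 higher with quantile normalisation. KIF5A, the neuronal kinesin heavy chain, had signals of 100.4, 87.4 and 93.3 at 0 h and 221.9, 195.5 and 199.3 at 48 h (1.01). The difference between the kinesin lists was not tested.

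Cytoskeletal genes of neurons rose in 15 of 30 and fell in 6, or 12 and 7 with centring and 17 and 4 with quantile normalisation. DCX, a microtubule protein of migrating neurons, had signals of 106.9, 114.7 and 119.6 at 0 h and 687.6, 637.7 and 547.1 at 48 h (2.30, SE 0.13, adjusted p 5.46e-10). PRPH, the intermediate filament of peripheral neurons, went from 516.8, 604.2 and 459.1 to 1338, 1395 and 1263 (1.32). Neither overlaps. MAP1A, a microtubule protein of mature neurons, fell by 0.83, DPYSL2 by 0.52, and TUBA1A was not called (0.05).

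Of 14 transcription factors of the noradrenergic state 8 rose and 1 fell. ISL1, of sympathetic neuron development, had signals of 289.5, 326.7 and 390.3 at 0 h and 810.1, 843.0 and 1056 at 48 h (1.39). HAND2 rose by 0.97 and SOX11 by 0.87, INSM1 fell by 0.57, and PHOX2A was not called (0.17). GATA3 was not called on its brightest probe set (0.19) and was called higher on both others (0.45 and 0.48). For making and moving catecholamines, 4 of 8 tested rose, and TH, which makes the precursor of dopamine, was below the filter (mean signal 0.63 at 0 h). DBH, which makes noradrenaline, had signals of 85.7, 101.9 and 78.9 at 0 h, 435.0, 332.8 and 328.6 at 48 h, and 193.0, 144.9 and 93.3 at 72 h. It rose by 1.86 at 48 h and fell by 1.29 from 48 to 72 h (adjusted p 0.000351). Secretory granule genes rose in 8 of 12 and fell in 2. SCG2, a granin, rose by 0.85 and CHGB, another, by 0.73. The neuropeptide gene GAL fell by 1.16, from 1765, 1780 and 3216 to 1007, 893.1 and 981.5, and CHGA was not called (-0.08).

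Receptors and channels were mixed. Voltage-gated channel genes rose in 12 of 27 tested and fell in 2, or 8 and 3 with centring and 8 higher with quantile normalisation. A sodium channel subunit gene, SCN3B, went from 125.5, 129.8 and 113.1 to 348.5, 369.2 and 358.0 (1.43). Of 18 neurotransmitter receptor genes 8 rose and 2 fell. GRIA2, a glutamate receptor subunit, rose by 1.36, and CHRNA3, the ganglionic nicotinic receptor and the brightest, was not called (-0.13). Of 14 neurotrophic and growth factor receptors 4 rose and 2 fell, which is near the shares over all genes. RET, the receptor of GDNF family ligands, had signals of 15.6, 28.7 and 44.8 at 0 h, 107.5, 108.2 and 183.9 at 48 h, and 420.0 to 686.6 at 72 h. It was not called at 24 h (-0.19), rose by 1.72 at 48 h, and the step from 48 to 72 h was 1.91 (adjusted p 0.00036).

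Axon guidance genes rose in 19 of 40 tested and fell in 3, with 21 more below the filter. The netrin receptor gene UNC5C went from 102.3, 94.9 and 137.5 to 323.6, 334.4 and 448.9 (1.59), and NRP1, a semaphorin receptor, rose by 0.96. EFNB2, an ephrin, fell by 1.09. Cadherins and protocadherins rose in 9 of 22 and fell in 4. PCDH17 and CTNNA2, the alpha catenin of neurons, rose by 1.30 and 1.19, while CTNNA1, the alpha catenin of epithelia, fell by 1.57, from 740.0, 711.9 and 713.5 to 208.5, 254.1 and 236.5. Of 30 collagen, laminin and integrin genes 12 rose and 1 fell, among them COL13A1 (2.0) and COL11A1 (1.62).

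Signalling lists moved less uniformly. Of 20 genes that ERK signalling induces as feedback, 8 rose and 2 fell. DUSP6, the phosphatase that switches ERK off, went from 20.4, 20.3 and 52.5 to 86.9, 71.6 and 148.3 (1.34) and ETV1 rose by 1.17, while PHLDA1 fell by 0.90. Of 20 Notch pathway genes 9 rose and 3 fell, with 0 to 1 lower without replicate 1 or 2 at 0 h or replicate 1 or 3 at 48 h. The rises were led by the coactivator MAML3 (1.04) and the receptor NOTCH1 (0.80), with HES6 lower (-0.59). Of 31 Wnt pathway genes 13 rose and 2 fell, or 8 and 2 with centring, and 8 rose without replicate 2 at 48 h. WNT5A rose by 1.07. The TGF-beta and BMP list was mixed, with 6 of 31 higher and 7 lower. Here ID1, an inhibitor of differentiation factors, went from 2878, 2585 and 2803 to 1036, 916.2 and 1278 (-1.35), and BMP4 rose by 1.0. Of 16 immediate early genes 3 rose and 5 fell, and 1 rose with centring or without replicate 3 at 48 h, with ARC higher (1.70) and JUN lower (-0.71). Of 14 interferon response genes 5 rose and 1 fell, against 26.3% higher and 17.7% lower over all genes. Secreted factors fell in 5 of 10 and rose in 3. IGFBP5, which binds insulin-like growth factors, had the largest fall among called genes whose times do not overlap, from 636.3, 677.4 and 332.1 to 85.1, 84.2 and 48.4 (-2.64).

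Several growth and metabolism lists were called, both directions together, near or below the 44.0% over all genes. By direction, mitochondrial ribosomal proteins and ribosome biogenesis genes were called lower more often than the 17.7% over all genes. Cytosolic ribosomal proteins were called in 7 of 53, with 6 higher and 1 lower, but 18 higher with quantile normalisation, 11 with the block, 0 with centring or without replicate 1 at 48 h, and 2 without replicate 2 or 3 at 0 h. RPL9 was the 1 lower (-0.65), and the brightest, RPS23 and RPL31, were not called (0.12 and 0.11). Other probe sets of both were called higher, 1 of RPS23 (0.58) and 2 of RPL31 (0.49 and 1.41). Mitochondrial ribosomal proteins fell in 22 of 75 and rose in 6, led by MRPL32 (-1.17), which had reached -1.07 at 24 h. Ribosome biogenesis genes fell in 13 of 40 and rose in 4, with 8 lower without replicate 2 or replicate 3 at 0 h. The direction of the respiratory chain depended on scaling: complex I had 4 of 33 higher and 6 lower, or 3 and 14 with centring and 7 and 3 with quantile normalisation, and 3 lower without replicate 1 at 0 h or replicate 2 or 3 at 48 h. Complexes II to V had 8 of 35 higher and 3 lower, or 3 and 6 with centring and 17 and 2 with quantile normalisation, and 5 higher without replicate 3 at 0 h or replicate 1 at 48 h. Glycolysis and hypoxia genes were called higher in 7 of 34 and lower in 8, citric acid cycle genes in 2 (4 with the block) and 4 of 22.

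Of 23 cholesterol genes 7 rose and 4 fell, or 6 and 7 with centring. The exporter ABCA1 went from 15.4, 16.1 and 7.8 to 90.8, 79.3 and 69.7 (1.73), and STARD4, a sterol carrier, rose by 1.31, while ACAT2, an early enzyme of synthesis, fell by 1.45. Fatty acid and lipid genes had 9 of 28 higher and 5 lower, shares near those over all genes. Lysosomal genes had 8 of 51 higher (5 without replicate 2 at 0 h) and 7 lower (4 without replicate 3 at 0 h or replicate 2 at 48 h). RAB GTPases had 8 of 43 higher and 10 lower, and the latter count was 6, 5 and 4 without replicate 1, 2 or 3 at 0 h and 3 without replicate 2 at 48 h. Autophagy genes had 13 of 41 higher and 5 lower (3 without replicate 1 or 2 at 48 h), against 26.3% and 17.7% over all genes. Among these the p53 target DRAM1 rose by 1.30 and the receptor OPTN by 1.17, while SQSTM1 and MAP1LC3B both fell by 0.66. Of 17 genes of small RNA processing 8 rose and 2 fell. AGO2 and DROSHA were among those not called (both -0.01), and DIS3L2, the nuclease that degrades uridylated RNAs, rose by 1.01.

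Few genes at 48 h were called off the path between 24 and 72 h in the main fit. A gene not called may still lie off it. Against the mean of those times 39 genes (0.331%) were called, 16 higher (0.136%) and 23 lower (0.195%), and this count ranged from 0 to 317 over the alternatives. By limma it was 0 without replicate 1 or replicate 3 at 48 h, where 1606 and 1175 genes had an unadjusted p under 0.05, against 1693 with all arrays, and 0 with only the arrays of these 3 times (1619 unadjusted). Of the 39, 8 lay above and 9 below both neighbours in mean, and 3 of them are described. DBH was the largest (1.02, adjusted p 0.0208). ARHGAP36, a regulator of protein kinase A, had signals of 1125, 1015 and 909.1 at 48 h against 471.0 to 592.9 at 24 h and 506.3 to 767.0 at 72 h (0.73). SLC1A5, the glutamine transporter, lay below both, at 280.0, 261.1 and 273.7 against 414.3 to 483.5 and 325.5 to 464.5 (-0.56). For both genes the arrays at 48 h do not overlap either neighbour.

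The labelled cell type was checked against markers. The 10 noradrenergic markers on the array summed to signals of 10656 to 11041 at 0 h and 12550 to 14697 at 48 h, and 5 of 9 tested rose. MYCN, at means of 4558 and 5384, was among them (0.23), but none of its other probe sets past the filter was called (0.35, 0.39 and 0.18). Mesenchymal and Schwann cell markers summed to 5886 to 6620 and 4924 to 5748, sums in which VIM is the largest part. Of the 6 tested, SNAI2 (-0.87) and VIM (-0.34) were lower and 4 were not called (median -0.09). Among the latter the means of TWIST1 (1323 to 1460), FN1 (136 to 172) and SOX9 (39 to 52) were higher at 48 h, and that of FOSL2 lower. Fibroblast markers summed to 380 to 557 and 710 to 816. COL1A1 is the largest part of these sums. LUM (2.31) and PDGFRB (0.60) rose. COL1A1 (means of 289 at 0 h and 368 at 48 h) and THY1 (98 and 122) were tested and not called. Another probe set of THY1 was called higher (0.32), but no other of COL1A1 was called. COL1A2, COL3A1, DCN, FAP and POSTN were below the filter, which is set on the mean over all 15 arrays. Immune, endothelial and epithelial markers summed to at most 79.3 on any of the 6 arrays, with CD8A (0.58) the only one called. The part of these markers in the changes above was not tested.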

How the data were processed

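Per the labels' protocols, 4 µg of total RNA was labelled with Affymetrix's one-cycle kit, and per the submitters' processing notes values come from MAS5 and GCOS, versions not given in the sources used here. The table the authors deposited holds a linear signal intensity for 54675 probe sets on 15 arrays (U133 Plus 2.0), scaled to a trimmed mean of 100.01 on each. It was taken without further scaling. Precision is limited by the small number of arrays.

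By GEO's platform annotation 41091 probe sets have 1 gene symbol, 1801 have several, 11721 have none and 62 are controls. Values were taken as log2(signal + 16). A mean log2 value over all arrays at or above the median probe set (signal about 16.6) was required, which left 27307, and each gene was represented by the brightest of these that names it alone. A single limma 3.58.1 model (lmFit, eBayes with trend) covered all 5 times in R 4.3.3, 3 arrays each, with Benjamini-Hochberg adjustment over 11774 genes. Tables and figures used Python 3.11.15, pandas 2.3.3 and matplotlib 3.10.9, and the fit was tested on simulated data.

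Genes and lists were chosen with earlier results of these data known. The rule for naming takes the 15 largest rises and falls whose arrays do not overlap, up to 5 called members in each direction and up to 3 bright uncalled ones of each list, all CDKs, cyclins, CDK inhibitors, E2F and pocket protein genes and markers, and the 10 largest rises and falls of the neighbouring steps and of the genes off both neighbours. The rule takes 722 genes, and which of them the text names was chosen with their values known. In addition H1-3, H2AC15, H2AC17, H2BC21, H3C6, H4C8 and TOP2A are named by a choice made after seeing their values. For the 522 of these 722 that were called, 297 had other probe sets, 543 in all: 335 were called the same way, 204 not called and 4 the opposite way (ATP5F1C, HNRNPD, KLC1 and MBD2). Of the 200 not called, 110 had other probe sets, of which 31 genes had 1 or more called.

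Nothing in the labels pairs replicate numbers. Deviations of same-numbered arrays correlated at 0.17, 0.122 and 0.211 for 0 with 48 h. For 24 with 48 h the values were 0.17, 0.0667 and 0.156, and for 48 with 72 h 0.143, 0.119 and 0.353. Differently numbered arrays reached 0.0383 for 0 with 48 h. Replicate 2 at 48 h correlated at 0.167 with replicate 1 at 72 h. These values do not settle whether the numbers pair the arrays. The main fit does not pair them, and the replicate block is an alternative. Alternatives changed the pseudocount, scaling, filter, probe sets, variance model, arrays fitted, replicate block and threshold, and left out each array in turn. Promoters are RefSeq's of GRCh38.p14, matched by symbol for 9657 tested genes.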

Additional observations from a re-analysis of the deposited data

How the results depend on the processing

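The fall of CDK2 was called at -2.24 to -1.39 under each alternative that tested it as a gene; it was not among the brightest 25% of probe sets, and its other probe set past the filter gave -1.73. Genes called at 48 h against 0 h numbered 3927 to 6300 over the alternatives that kept the threshold and tested genes, and 4391 to 4683 when 1 array was left out. With the replicate number as a block there were 5580, and with only the arrays of 0 and 48 h in the fit 5582, against 5175. With every probe set tested singly they were 9460 (5689 higher, 3771 lower), and 4063 for 48 against 24 h. Requiring an absolute change of 1 as well left 575 (279 higher, 296 lower), 233 for 48 against 24 h and 114 for 72 against 48 h. Genes past that change were 960 with a pseudocount of 1, 291 with 64 and 1048 as probe sets, since the pseudocount shrinks the changes of dim genes. Leaving out an array gave 1887 to 2445 genes for 48 against 24 h and 656 to 1148 for 72 against 48 h, and the block gave 1732 for the latter against 1258. Genes called at 48 h against the mean of 24 and 72 h, 39 in the main fit, were 70 with a pseudocount of 64, 72 with quantile normalisation, 7 with centring, 12 without a filter, 69 among the brightest 25% of probe sets, 17 as probe sets, 19 without a trend, 317 with array weights, 0 with only the arrays compared, 181 with the block, 1 past a change of 1 and 0 to 81 with an array left out; the cause was not tested. MBD2 reversed to 0.336 with the mean of its probe sets. Low signals limit histone and receptor genes near the filter.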
